A study of Mus musculus with 9 samples.

Results

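The clustered protocadherins are adhesion proteins of the cadherin superfamily whose genes lie side by side in the alpha, beta and gamma arrays of mouse chromosome 18. They were followed in embryonic medial ganglionic eminence (MGE), the ventral forebrain zone that gives rise to many cortical interneurons, with and without deletion of Ctnnb1, the gene for beta-catenin. Members were taken by symbol (Pcdha, Pcdhb, Pcdhga, Pcdhgb and Pcdhgc with a number, Pcdhac1 and Pcdhac2; pseudogene symbols left out), which gave 58 of the 48526 gene identifiers in the table: 14 alpha, 22 beta and 22 gamma genes. The symbol Pcdha11 stands for 2 identifiers, ENSMUSG00000007440 and ENSMUSG00000102206, and Pcdhgb8 is annotated as a polymorphic pseudogene. On the mm10 build the alpha genes span positions 36930184 to 37187661, the beta genes 37264938 to 37524479 and the gamma genes 37661793 to 37841873, all on the plus strand.

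The 5 knockout libraries were Nkx2.1-cre; Ctnnb1fl/fl; Rosa26-YFP. Of the 4 control libraries, replicates 1 to 3 were Nkx2.1-cre; Rosa26-YFP without a floxed allele, and replicate 4 was Nkx2.1-cre; Ctnnb1fl/wt; Rosa26-YFP. All came from C57BL/6 embryos at embryonic day 14.5, and all thus carried the Cre, which acts in cells with a history of Nkx2-1 expression, and the yellow fluorescent reporter. The labels call the samples MGE tissue, but the protocol names collected cells or removed MGE without saying which was used here or whether cells were sorted. The share of cells in which the Cre acted is thus unknown for these values. The sources do not say either whether each library was a separate embryo, so the p-values reflect how much these libraries vary, and some of that variation may be technical.

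In alpha and gamma genes a long variable exon, which encodes the whole extracellular part, is spliced to constant exons shared by the array; each beta gene is a single coding exon with no such shared part. A neuron uses a small set of the alternate promoters, chosen largely at random, while the C-type genes (Pcdhac1, Pcdhac2, Pcdhgc3, Pcdhgc4 and Pcdhgc5) are used more evenly. The proteins bind like to like between cell surfaces, and in mouse the gamma array is known for keeping neurons, cortical interneurons among them, alive during development and for dendrite self-avoidance.

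Values are read counts divided by a size factor for each library (normalized counts). If the smallest step in each column is worth 1 read, the deposited totals correspond to 5120585 to 5569444 reads per library; this depth was worked out from the values and is not stated by the authors. Ctnnb1, the deleted gene, had 7103, 7661, 7133, 6572 and 5477 normalized counts in knockout replicates 1 to 5, against 9841, 9960, 9967 and 9545 in control replicates 1 to 4. Every knockout was below every control (log2 fold change -0.54, SE 0.0960, limma adjusted p = 0.000811; exact two-sided permutation p = 0.00794, the smallest possible here). Control replicate 1 stood apart from the other controls. The choroid plexus transcript Ttr reached 2691 there and stayed within 16.1 to 71.7 in control replicates 2 to 4. Neurod6 of cortical neurons reached 626 and stayed within 4.98 to 39.2. In the knockouts Ttr was at 63.3 to 384 and Neurod6 at 18.1 to 79.6. Knockout replicate 5 had the highest count of the mesenchyme marker Col1a1, at 809, against 111 to 304 in knockout replicates 1 to 4 and 109 to 449 in the controls. The defining MGE marker Lhx6 was present in every library (4611 to 6066 in knockouts and 1968 to 4183 in controls). Two-sided tests were made with limma on log2(normalized count + 1) over the 13780 genes whose mean reached 10, and a call needed a Benjamini-Hochberg adjusted p under 0.05. Fold changes on this scale understate the change of low genes.

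Clustered protocadherin transcripts were more abundant in knockout MGE in each of the 3 arrays. In these bulk samples more cells of a type and more RNA per cell cannot be told apart. Of the 34 members that reached a mean of 10, 21 rose and 0 fell, with 28 higher and 0 lower at an unadjusted p under 0.05. Among all genes tested, 17.2% were called higher and 17.3% lower. Log2 fold changes of these members ran from 0.22 (Pcdhgb5) to 1.51 (Pcdhb7), with a median of 0.72 beside -0.01 over all genes tested and 0.04 over the 3404 genes with a mean of 10 to 50. The filter used the mean of all libraries, and 7 of the 34 had a control mean under 10 and passed through the knockout values. Of these 7, 1 was an alpha, 5 were beta and 1 was a gamma gene. Over all 58 members, whatever their level, the knockout mean was the higher one for 54 and the lower one for 3 (Pcdha4, Pcdhb1 and Pcdha11 ENSMUSG00000102206, each under 1 normalized count), and Pcdhga10 was at 0 throughout. Log2 fold changes were positive for 49.0% of all genes tested, and for 52.5% of genes above 0 when no filter was used. A fit of all 30849 genes above 0, without a filter, called 28 of 57 members higher and 0 lower. At an unadjusted p under 0.05, 0 were lower too. Of the genes in that fit, 7.94% were called higher and 7.28% lower. Its p-values for the members rest on a spread pooled over genes rather than on how each member varied between libraries. Ctnnb1 had a limma p of 4.96e-14 there, against 4.74e-05 in the fit with the filter. Against control replicates 2 and 3 only, 6 of the 34 were called (Pcdhb7, Pcdhb17, Pcdhb18, Pcdhb19, Pcdhb20 and Pcdhga2), beside 9.94% of all genes, and after a correction for transcript length and GC content 14 were called, beside 15.8%; no fold change turned negative in either fit.

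**Figure D1:**
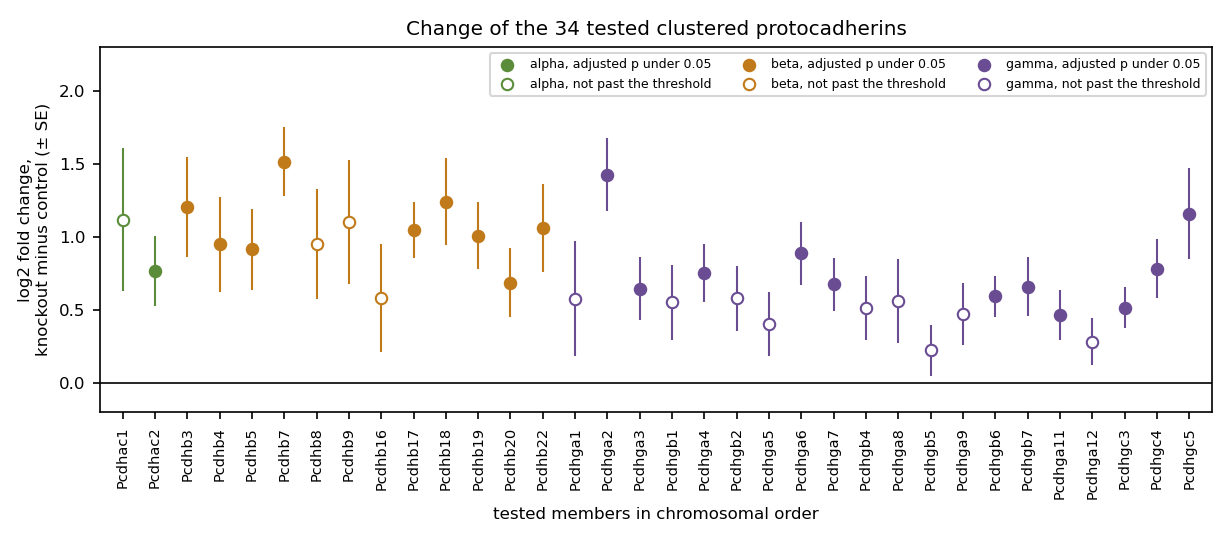
Log2 fold change of the 34 tested members, knockout minus control on log2(normalized count + 1), in chromosomal order; bars are SE and filled points passed an adjusted p of 0.05. All 34 points lie above 0, beside 49.0% of all genes tested. Beta genes centre on 1.03 and gamma genes on 0.58. Of the 34, 7 had a control mean under 10 and passed the filter through the knockout values (1 alpha, 5 beta and 1 gamma gene).

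The alpha array had the lowest counts. Its summed normalized count was 123, 91.3, 127, 169 and 144 in knockout replicates 1 to 5, against 55.6, 66.5, 62.3 and 39.9 in control replicates 1 to 4. The groups did not overlap, and the knockout mean of 131 ± 28.7 (SD, n = 5) was 2.34 times the control mean of 56.1 ± 11.7 (SD, n = 4). Only the C-type genes Pcdhac1 and Pcdhac2 reached the level for the test.

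Pcdhac2, which in mouse is needed for the even tiling of serotonergic axons, had 38.6, 31.7, 57.2, 74.6 and 37.3 normalized counts in the knockouts, against 23.2, 30.8, 26.1 and 25.9 in the controls. The groups were separate by a narrow margin between knockout replicate 2 and control replicate 2. It rose with a log2 fold change of 0.76 (SE 0.242, limma adjusted p = 0.0239), and the adjusted p was 0.0630 or less but above the threshold in 4 fits that left out 1 library (control replicate 1 or 4, knockout replicate 3 or 4), 0.0726 after the length and GC correction and 0.155 against control replicates 2 and 3. Pcdhac1 had 13.8, 8.65, 22.1, 10.5 and 18.1 in the knockouts, against 10.1, 8.94, 9.04 and 0.996 in the controls. The groups overlapped, and Pcdhac1 did not pass (log2 fold change 1.12, SE 0.490, adjusted p = 0.0906).

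The 12 alternate alpha identifiers had means of 0.222 to 9.27 normalized counts and were too low for the test. Together they summed to 70.2, 51.0, 48.1, 84.2 and 88.7 in the knockouts, against 22.2, 26.8, 27.1 and 13.0 in the controls, so that the groups did not overlap. Pcdha3, the highest of them, had 12.9, 14.4, 3.01, 23.9 and 19.1 in the knockouts, against 5.05, 2.98, 1 and 0.996 in the controls; knockout replicate 3 lay within the control range. Pcdha9 was at 6.73 to 19.1 in the knockouts and 0.996 to 2.98 in the controls, and Pcdha12 at 6.02 to 9.62 and 0.996 to 4.04. When all genes above 0 were fitted without a filter, these 3 and both C-type genes were called higher, 5 of 14. In that fit 7.94% of all genes were called higher, and its p-values for the members rest on a spread pooled over genes. Pcdha3 and Pcdhac1 were called there although their groups overlapped. The C-type share of the alpha count was 38.5% to 62.2% in the knockouts and 56.5% to 67.5% in the controls, with knockout replicate 3 within the control range.

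**Figure D2:**
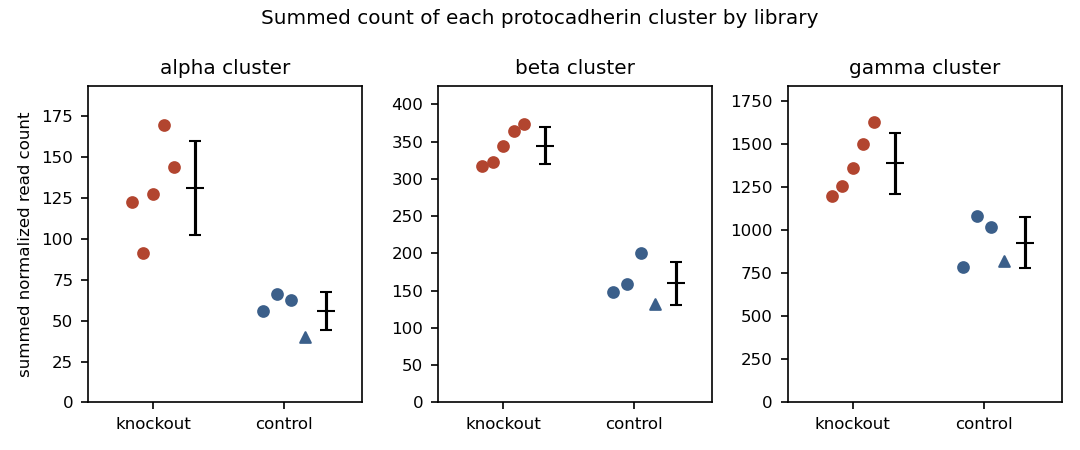
Summed normalized read count of the 14 alpha, 22 beta and 22 gamma genes per library; bars drawn next to the points give group mean and SD, and a triangle marks control replicate 4, which is heterozygous. All 5 knockouts lie above all 4 controls in each array, with ratios of means of 2.34, 2.15 and 1.5.

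Beta transcripts were higher in every knockout library than in any control. The summed beta count was 318, 322, 344, 365 and 374 in knockout replicates 1 to 5, against 149, 159, 200 and 133 in control replicates 1 to 4. The means were 344 ± 24.9 (SD, n = 5) in knockout and 160 ± 28.8 (SD, n = 4) in control, a ratio of 2.15. Of 12 tested beta genes, 9 rose and 0 fell, beside the 17.2% called higher among all genes. Their log2 fold changes ran from 0.58 to 1.51 around a median of 1.03. Of the 12, 5 had a control mean under 10 and passed the filter through the knockout values. Among these were the called genes Pcdhb3 and Pcdhb18, with control means of 7.25 and 6.26. In the fit without a filter 13 of 22 rose, beside 7.94% of all genes in that fit. Against control replicates 2 and 3 only, 5 of 12 were called, beside 9.94% of all genes. Leaving out 1 library gave 6 to 10 calls, with 6 without control replicate 4 or without knockout replicate 1. Of all 13780 genes, 1847 to 2379 were called higher in those fits.

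Pcdhb7 had the largest log2 fold change of the tested members. It had 30.7, 27.9, 45.1, 45.9 and 39.3 normalized counts in the knockouts, against 11.1, 15.9, 13.1 and 9.96 in the controls. Each knockout was well above the highest control, and the log2 fold change was 1.51 (SE 0.237, limma adjusted p = 0.000388). Pcdhb17, the beta gene with the highest count, had 38.6, 41.3, 33.1, 42.1 and 47.4 in the knockouts, against 18.2, 21.9, 19.1 and 16.9 in the controls, again without overlap (1.05, SE 0.192, adjusted p = 0.00104).

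Pcdhb19 had 27.7, 26, 26.1, 25.8 and 34.3 in the knockouts, against 13.1, 15.9, 15.1 and 9.96 in the controls. Its knockouts were tightly grouped apart from replicate 5, and it rose by 1.01 on the log2 scale (SE 0.228, adjusted p = 0.00384). Pcdhb22, at the gamma end of the beta array, had 29.7, 36.5, 16, 32.5 and 35.3 in the knockouts, against 13.1, 14.9, 20.1 and 7.97 in the controls. Knockout replicate 3 fell within the control range. Pcdhb22 rose by 1.06 (SE 0.302, adjusted p = 0.0143), with adjusted p = 0.0529 without control replicate 4.

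Pcdhb3, Pcdhb4, Pcdhb5, Pcdhb18 and Pcdhb20 were the other beta genes that rose, with log2 fold changes of 0.69 (Pcdhb20) to 1.24 (Pcdhb18). Pcdhb8, Pcdhb9 and Pcdhb16 did not pass, at 0.95, 1.10 and 0.58. The 10 beta genes below the test level had means of up to 7.15. Among them Pcdhb2 was at 5.77 to 15.0 in the knockouts and 2.01 to 4.04 in the controls, without overlap, whereas Pcdhb1, the first gene of the array, was at 0 in 4 knockout and 3 control libraries.

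The gamma array held most of the counts. Its sum was 1202, 1255, 1360, 1503 and 1629 in knockout replicates 1 to 5, against 786, 1086, 1019 and 819 in control replicates 1 to 4. The groups did not overlap, and the means of 1390 ± 176 (SD, n = 5) in knockout and 927 ± 147 (SD, n = 4) in control gave a ratio of 1.5. Of 20 tested gamma genes 11 rose and 0 fell; their log2 fold changes ran from 0.22 to 1.43 around a median of 0.58, again beside 17.2% of all genes. After the length and GC correction 7 of 20 were called, beside 15.8% of all genes, with a median of 0.36. Against control replicates 2 and 3 only, 1 of 20, Pcdhga2, was called, beside 9.94% of all genes, with a median of 0.38. Control replicates 1 and 4, left out there, had the lowest gamma sums of the 9 libraries.

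All 3 gamma C-type genes rose. Pcdhgc4, which is required in mouse for the survival of cortical interneurons, had 101, 101, 110, 136 and 126 normalized counts in the knockouts, against 56.6, 78.5, 96.5 and 43.8 in the controls. Every knockout exceeded every control, and the log2 fold change was 0.78 (SE 0.201, limma adjusted p = 0.00811). Pcdhgc3, which in mouse promotes dendrite growth of cortical neurons and binds the Wnt pathway scaffold Axin1, had 246, 301, 304, 316 and 399 in the knockouts, against 198, 256, 241 and 179 in the controls. Knockout replicate 1 lay below control replicate 2, and it rose by 0.51 on the log2 scale (SE 0.140, adjusted p = 0.0112).

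Pcdhgc5, which is known to bind a subunit of GABA-A receptors, had 26.7, 36.5, 22.1, 39.2 and 37.3 in the knockouts, against 8.09, 25.8, 16.1 and 9.96 in the controls. Knockout replicate 3 lay below control replicate 2. It rose by 1.16 on the log2 scale (SE 0.313, adjusted p = 0.0106). Each of the 3 passed in all 9 fits that left out 1 library, with adjusted p of at most 0.0458 for Pcdhgc3. Against control replicates 2 and 3 only, the adjusted p was 0.175 for Pcdhgc3, 0.139 for Pcdhgc4 and 0.181 for Pcdhgc5, and Pcdhgc3 had 0.0620 after the length and GC correction.

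**Figure D3:**
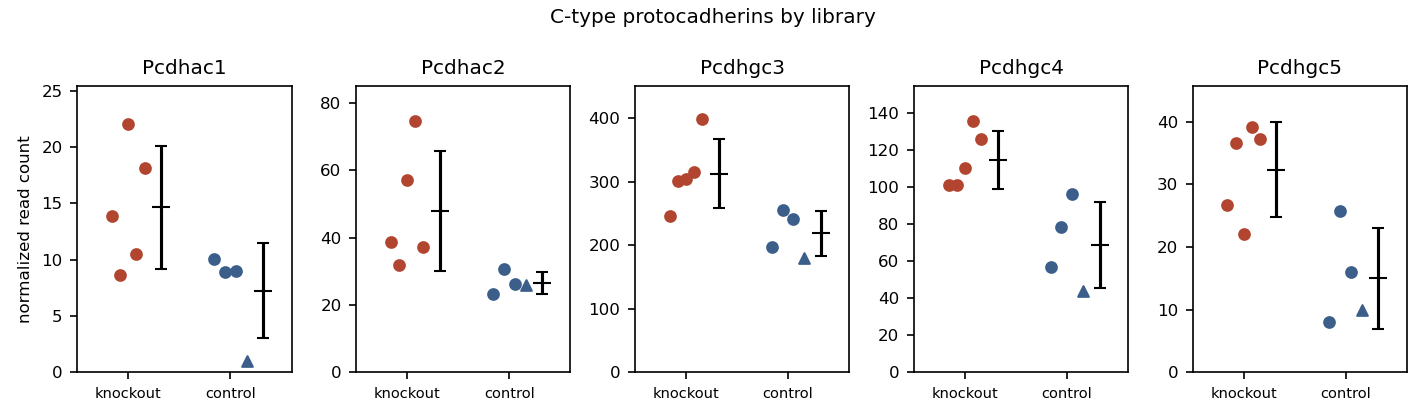
Normalized read count of the 5 C-type genes per library; bars drawn next to the points give group mean and SD, and a triangle marks control replicate 4, which is heterozygous. Knockouts and controls are separate for Pcdhac2 and Pcdhgc4 and overlap for Pcdhac1, Pcdhgc3 and Pcdhgc5.

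Among the tested gamma genes, Pcdhga2 had the largest log2 fold change. It had 24.7, 28.8, 23.1, 41.1 and 38.3 normalized counts in the knockouts, against 12.1, 8.94, 12.1 and 9.96 in the controls. The lowest knockout was well above the highest control (log2 fold change 1.43, SE 0.250, limma adjusted p = 0.000759). Pcdhgb6 had 152, 144, 174, 172 and 180 in the knockouts, against 93, 122, 136 and 89.7 in the controls. It rose by 0.59 (SE 0.141, adjusted p = 0.00534) with no overlap, and had adjusted p = 0.103 against control replicates 2 and 3 only.

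Pcdhga6 had 50.4, 36.5, 40.1, 46.9 and 52.4 in the knockouts, against 20.2, 35.8, 20.1 and 21.9 in the controls. Control replicate 2 came close to the lowest knockout, and Pcdhga6 rose by 0.89 on the log2 scale (SE 0.215, adjusted p = 0.00573; 0.0746 against control replicates 2 and 3 only). Pcdhga3, Pcdhga4, Pcdhga7, Pcdhga11 and Pcdhgb7 also rose, by 0.46 (Pcdhga11) to 0.75 (Pcdhga4). In all, 6 of 11 tested genes of the A subfamily and 2 of 6 of the B subfamily rose, with medians of 0.58 and 0.57.

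The smallest log2 fold changes among the tested gamma genes were those of Pcdhgb5 and Pcdhga12. Pcdhgb5 had 56.6 ± 12.1 (SD, n = 5) in knockout and 47.6 ± 3.4 (SD, n = 4) in control (0.22, SE 0.175, adjusted p = 0.342). Pcdhga12 had 62.6 ± 9.39 in knockout and 51.1 ± 4.89 in control (0.28, SE 0.161, adjusted p = 0.190). Neither passed, nor did Pcdhga1, Pcdhga5, Pcdhga8, Pcdhga9, Pcdhgb1, Pcdhgb2 and Pcdhgb4, whose log2 fold changes were 0.40 to 0.58.

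Over all 58 members the groups did not overlap for 19, each with the knockouts above the controls: 4 alpha, 9 beta and 6 gamma genes. The same held for 6.93% of the 30849 genes above 0. Of the 34 tested members 13 did not overlap, beside 14.5% of all genes tested.

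Levels can be compared between genes only per length of sequence that is theirs alone. In the GENCODE M21 annotation a median of 46.4% of the exon bases of an alpha gene and 54.7% of a gamma gene belonged to no other gene, since the constant exons are shared, against 100% for beta genes. Reads in the constant exons cannot be given to 1 gene. How they were treated is not given in the sources used here, and the totals above may leave them out. Per kilobase of exon exclusive on either strand, Pcdhgc3 was highest, at 172 normalized counts in knockout and 120 in control, followed by Pcdhga11 (81.5 and 59.9) and Pcdhgb6 (64.1 and 42.9). If overlaps count only on the same strand, an alternative chosen after seeing the data, the values were 92.7 in knockout and 64.7 in control for Pcdhgc3 and 38.8 in knockout and 28.5 in control for Pcdhga11, and Pcdhgb6 came before Pcdhga11. Pcdhac2 led the alpha genes (15.8 and 8.76) and Pcdhb7 the beta genes in knockout (10.8 and 3.57); in control Pcdhb20 led the beta genes (7.18 in knockout and 4.36 in control).

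Pcdhga10 was at 0 in all 9 libraries, and it was the member with 0 exclusive exon bases when strand is ignored: its own exon lies within the opposite-strand gene Gm26672, and with strand it would keep 2613 bases. In all, 13 members overlapped an opposite-strand gene, among them Pcdhgc3, Pcdhga11 and Pcdhgb7. The sources used here do not give the strand setting of the counting, and their values may include or lack antisense reads. The beta genes are close copies of each other, and reads that match several of them are uncertain too.

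**Figure D4:**
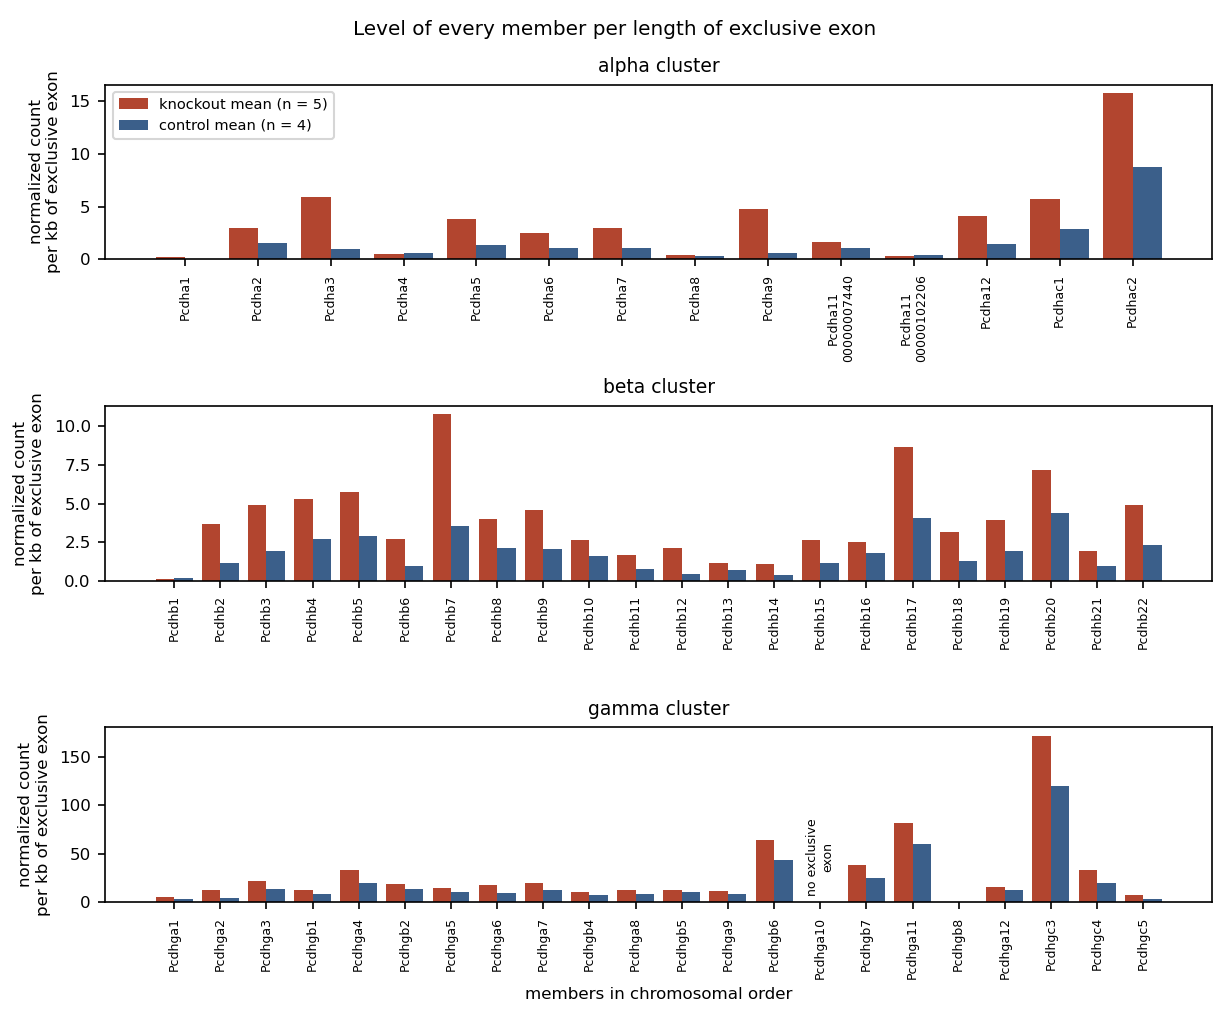
Mean normalized count per kilobase of exon exclusive on either strand for all 58 members in chromosomal order, knockout beside control; each array has its own vertical scale. Pcdhgc3 reaches 172 in knockout and 120 in control, while beta genes stay at or below 10.8, and Pcdhga10 has no exclusive exon and no bar.

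The arrays did not keep the same proportions. Beta genes made up 19.3%, 19.3%, 18.8%, 17.9% and 17.4% of the clustered protocadherin count in knockout replicates 1 to 5, against 15.0%, 12.1%, 15.6% and 13.4% in control replicates 1 to 4, with no overlap. The gamma share was 73.2% to 75.9% in the knockouts and 79.4% to 82.8% in the controls, also with no overlap. The alpha share overlapped, at 5.48% to 8.31% in the knockouts and 4.02% to 5.61% in the controls. Within the gamma array the proportions were close: the C-type share was 31.1% to 34.9% in the knockouts and 28.5% to 34.7% in the controls. These shares are descriptions and were not tested.

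Markers of neurons moved in the same direction. Of 21 pan-neuronal genes 16 rose and 0 fell, all 20 genes of an MGE interneuron list rose, and all 20 of a cell cycle list fell. Among all genes tested, 17.2% were called higher and 17.3% lower. The lists were chosen with earlier results of these data known, so these counts are descriptions and not independent support. The summed pan-neuronal count was 40485 to 54798 in the knockouts and 23011 to 28435 in the controls, a ratio of means of 1.87, and Dcx of young neurons was at 6587 to 8575 and 2283 to 3869. The ratios for protocadherins were 2.34 for alpha, 2.15 for beta and 1.5 for gamma. Per 1000 pan-neuronal counts, the gamma sum was 26.3, 31.0, 26.9, 31.8 and 29.7 in knockout replicates 1 to 5, against 34.2, 38.2, 36.9 and 35.5 in control replicates 1 to 4, so that every knockout was below every control. The beta sum per 1000 was 6.81 to 7.96 in the knockouts and 5.59 to 7.25 in the controls, and the alpha sum 2.26 to 3.59 and 1.73 to 2.42; both overlapped. Control replicates 1 and 4 had both the lowest pan-neuronal sums and the lowest protocadherin sums (991 and 991 over all members, against 1311 and 1281 in control replicates 2 and 3). The values per 1000 use the pan-neuronal list, chosen with earlier results known, and are descriptions too. The part of neuron number in the protocadherin changes was not tested.

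**Figure D5:**
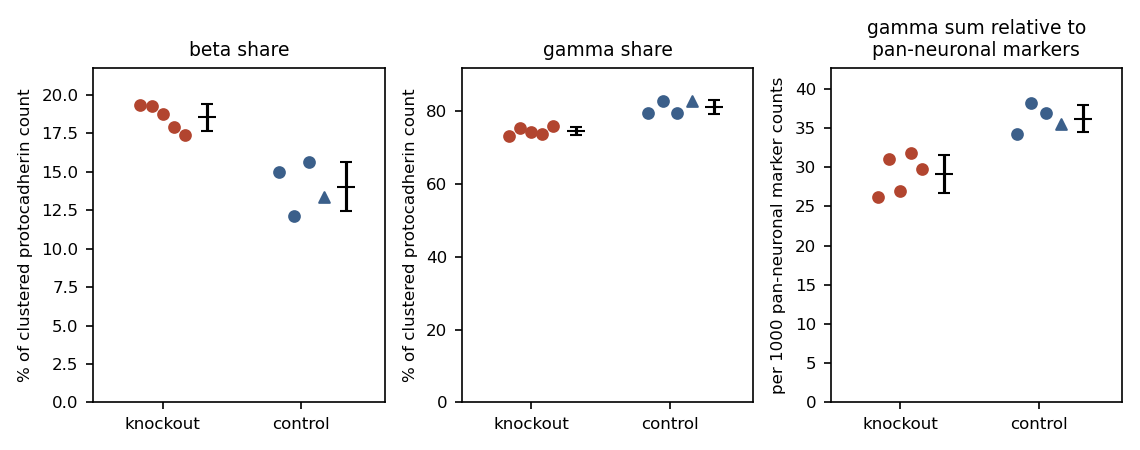
Beta and gamma share of the clustered protocadherin count, and gamma count per 1000 counts of 21 pan-neuronal markers, per library; bars drawn next to the points give group mean and SD, and a triangle marks control replicate 4, which is heterozygous. Knockouts lie above controls for the beta share (17.4% to 19.3% against 12.1% to 15.6%) and below them on both gamma measures. The marker list was chosen with earlier results of these data known, so the measure that uses it is a description.

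Markers of other cell types were checked in the same fit. Of the tested genes, 0 of 15 of the cortical, 5 of the choroid plexus, 9 of the microglial, 10 of the endothelial and pericyte, 10 of the mesenchymal and 7 of the erythroid list were called by limma, and at an unadjusted p under 0.05 there were 1 cortical and 3 microglial genes, all lower. Summed cortical markers were 386 to 1139 in the knockouts, and in the controls 3834 (replicate 1) and 263 to 432 (replicates 2 to 4). Summed mesenchymal markers were 3598 in knockout replicate 5, 641 to 1247 in knockout replicates 1 to 4 and 544 to 2065 in the controls. Of 18 radial glia genes 1 rose and 9 fell, and of 8 oligodendrocyte precursor and astrocyte genes 3 rose and 1 fell, beside 17.2% higher and 17.3% lower among all genes. The summed count of the oligodendrocyte precursor and astrocyte list was lower, at 1144 to 1479 in the knockouts and 1601 to 1954 in the controls, and that of the radial glia list was 25429 to 31653 in the knockouts and 37236 to 42502 in the controls.

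CTCF and cohesin bring a chosen promoter to the distant enhancers, and DNA methylation and repressive chromatin keep the others silent. Of 33 such genes, all tested, 15 fell and 5 rose, beside 17.3% and 17.2% of all genes, and the median was -0.25 on the log2 scale. The Polycomb subunit Suz12 had 770 ± 95.7 normalized counts in knockout (SD, n = 5) and 1110 ± 61.9 in control (SD, n = 4), and fell by 0.53 (SE 0.0976, limma adjusted p = 0.00101). The Polycomb methyltransferase Ezh2 fell by 0.50, the maintenance DNA methyltransferase Dnmt1 by 0.51 and the cohesin protector Cdca5 by 0.94. The groups did not overlap for any of the 4, but these were named for having the smallest p of the list. Among all genes tested, every knockout was below every control for 14.6%.

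Named after their values were seen, the cohesin subunits Rad21 (-0.49), Smc1a (-0.46), Smc3 (-0.30), Stag1 (-0.26) and Stag2 (-0.62), Ctcf itself (-0.23, adjusted p = 0.0344) and Smchd1 (-0.51), a chromatin protein that represses the arrays in mouse, also fell. Among those that rose were the demethylases Kdm6b (0.64), Tet1 (0.34) and Tet2 (0.55) and the cohesin loader subunit Mau2 (0.36). The loader Nipbl (-0.04) and the zinc finger gene Wiz (-0.02) did not pass. The list holds genes of dividing cells, and the whole cell cycle list, chosen with earlier results known, fell in the same libraries. Whether these changes are linked was not tested. Against control replicates 2 and 3 only, 8 of the 33 fell and 1 rose, beside 1108 and 1370 of all 13780 genes tested. With control replicate 4 left out 2 rose, and 3 rose when control replicate 1, knockout replicate 2 or knockout replicate 4 was left out. Of all 13780 genes, 1847 to 2346 were called higher in these fits.

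The alpha proteins recruit the WAVE complex, which starts actin branching. Of 16 WAVE and actin genes 2 rose, the kinase Pak1 (0.68, SE 0.100, limma adjusted p = 0.000265) and the WAVE subunit Cyfip2 (0.47), and 3 fell, the WAVE subunit Nckap1 (-0.27), the GTPase Rhoa (-0.27) and Cyfip1 (-0.25), named after its values were seen. These shares, 2 and 3 of 16, were near the 17.2% and 17.3% of all genes. Only 1 fell without control replicate 4, and 1 rose and 1 fell against control replicates 2 and 3 only. A further list was drawn up as membrane and signalling partners, not all of which need bind protocadherins. Of its 21 tested genes, 6 rose and 1 fell, beside 17.2% and 17.3% of all genes. The inhibitory synapse adhesion gene Nlgn2 had 1578 ± 231 in knockout (SD, n = 5) and 975 ± 167 in control (SD, n = 4) and rose by 0.70 (SE 0.127, adjusted p = 0.00101), and the kinase genes Src (0.52), Prkca (0.73) and Fyn (0.33) rose too, as did Dscaml1 (1.93), which was named with its values known. Marcks was the gene that fell, and the call was lost when control replicate 2, 3 or 4, or knockout replicate 4, was left out. Against control replicates 2 and 3 only, 4 partners rose and 1 fell, beside the same counts over all genes.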

How the data were processed

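Sequencing used 500 ng of total RNA for each library, per the labels' protocols. The authors deposited a signal for every gene, counts scaled by a size factor, and each column holds whole multiples of 1 step (tolerance 0.01). The submitters' processing notes name mm10, DESeq2, R 3.4.0, HTSeq 0.9.1 and TopHat2 2.1.1 without roles; annotation release and strand setting: not given in the sources used here. No count model was fitted, since the unit check did not accept recovered reads.

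Symbols matched 48058 of 48526 identifiers. Exon overlaps came from GENCODE M21, counted from 1. The test was limma 3.58.1 (trend and robust, statmod 1.5.0, R 4.3.3) with a pseudocount of 1, and fold changes were taken as knockout minus control on the log2 scale. The procedure was tested on simulated data. Alternatives were no filter, a minimum mean of 50, pseudocounts of 0.5 and 8, TMM (computed here from its formula) and upper-quartile scaling, plain limma, library weights, the replicate number as a block, a loess correction for transcript length and GC content (span 0.5), control replicates 2 and 3 only, each library left out, and an added log2 threshold of 1.

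Members, gene lists and alternatives were chosen with earlier results of these data known. By rule, values in every library were given for C-type genes, the 3 highest members of each array, and up to 3 members per array and direction with the smallest p; from each other list, up to 4 called genes were named. Other genes given with values were chosen after those were seen. No 2 libraries of a group agreed within sampling noise (smallest chi-square per degree of freedom 3.58).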

Additional observations from a re-analysis of the deposited data

Results flagged for a closer look

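In 58 groups of libraries (29 values in each genotype), 4 had 1 library far from the rest by Dixon's criterion. At the 1 in 20 expected by chance this would be 2.9 groups, so the number was near that of chance. Pcdhac1 was at 0.996 normalized counts in control replicate 4, against 8.94 to 10.1 in the other controls. Pcdhb19 was at 34.3 in knockout replicate 5, against 25.8 to 27.7 in the other knockouts. Pcdhga6 was at 35.8 in control replicate 2, against 20.1 to 21.9 in the other controls. The protein kinase gene Prkca was at 344 in knockout replicate 4, against 392 to 407 in the other knockouts.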

How the results depend on the processing

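The 34 tested members had a positive log2 fold change under each scaling, pseudocount, weighting, block, correction and left-out library; without a filter, 3 of 57 were negative. Without a filter 5 alpha genes were higher and 1 WAVE gene lower, beside 2448 higher and 2247 lower of all 30849 genes. At a minimum mean of 50, 5 of 7 gamma genes were higher and no alpha or beta gene was left to test. Of all 10376 genes in that fit, 2072 were called higher. After the length and GC correction, 0 alpha and 7 gamma genes (median 0.36), 3 promoter choice genes and 1 WAVE gene were higher, and 1 WAVE and 2 partner genes lower. Against control replicates 2 and 3 only, a comparison with fewer samples, 0 alpha, 5 beta, 1 gamma, 1 promoter choice and 1 WAVE gene were higher. In that fit 8 promoter choice and 1 WAVE gene were lower. Of all genes, 15.8% were called higher after the length and GC correction and 9.94% against control replicates 2 and 3 only. Called lower were 2659 of 13750 genes after the correction and 1108 of 13780 against control replicates 2 and 3 only. With a pseudocount of 8 the beta median was 0.69. Plain limma gave 3 higher promoter choice and 0 lower partner genes, beside 2182 higher and 2108 lower of all 13780 genes. With the added threshold, 0 alpha, 6 beta, 2 gamma, 0 promoter choice, 0 WAVE and 1 partner gene were higher. In that setting 1 promoter choice, 0 WAVE and 0 partner genes were lower. How many of all genes passed that threshold was not counted. With the replicate block, which drops knockout replicate 5, 5 beta genes were higher and 0 WAVE and 0 partner genes lower. Of all 13780 genes, 1835 were higher and 1717 lower in that fit. Same-numbered libraries did not deviate together (correlations -0.12 to 0.14). That check cannot exclude a shared litter or batch, so whether the numbers pair libraries is unknown. Leaving out 1 library gave 0 to 1 alpha, 6 to 10 beta and 8 to 14 gamma genes higher, with medians of 0.64 to 1.08, 0.86 to 1.17 and 0.49 to 0.67. It gave 2 to 6 higher and 11 to 16 lower promoter choice genes, 2 higher and 1 to 4 lower WAVE genes, and 5 to 6 higher and 0 to 1 lower partner genes. Of all 13780 genes, these fits called 1847 to 2379 higher and 1682 to 2416 lower. The cause of these shifts was not tested. Counts under about 10 per library limit the alpha and many beta genes.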

Other observations

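Genes beside and within the arrays were looked at after the members' values were seen. Taf7, a general transcription factor gene between the beta and gamma arrays, had 200 ± 15.3 normalized counts in knockout (SD, n = 5) and 240 ± 34.1 in control (SD, n = 4), with a log2 fold change of -0.25 (limma adjusted p = 0.0977). Diaph1, a formin gene that follows the gamma array on the opposite strand, had 420 ± 37.4 in knockout and 341 ± 62.7 in control (0.31, adjusted p = 0.0582). Neither passed. The opposite-strand transcript Gm10544, within the alpha array, had 54.4 ± 11.6 in knockout and 37.3 ± 4.90 in control and was called higher (0.51, adjusted p = 0.0464), with overlap between the groups. Gm26672 and BC037039, which overlap gamma genes on the opposite strand, had 7.69 to 13.0 and 7.91 to 16.3 in knockout, against 3.03 to 15.9 and 4.97 to 13.1 in control.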
